A study of Mus musculus with 6 samples.

Results

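The genes described here are 9 whose products guide T cells in and out of the thymus and hold them in their niches: Foxo1, Klf2, S1pr1, Cd69, Ccr7, Ccr9, Cxcr4, Itga4 and Itgb7. They were chosen by name, and each was read from the probe set annotated to that gene alone, of which every gene had 1. All 9 were among the 19938 genes named on the arrays and among the 13956 genes bright enough to be tested. Their levels were measured in mouse T cell acute lymphoblastic leukemia (T-ALL) driven by the active intracellular part of Notch, which was brought by retrovirus into blood progenitors that carried a Cre-ER transgene and a conditional Zfx fl/y allele. The 3 independent leukemias, lines 14843, 14844 and 14846, had been passed to sublethally irradiated secondary recipients, which keep blood cells of their own. The Tamoxifen group (genotype given as ZFX null, 3 arrays) came from recipients gavaged with 5 mg of tamoxifen a day for 3 days, starting 10 days after transplant. The Vehicle group (genotype given as ZFX flox, 3 arrays) came from recipients given vehicle. Leukemia cells were sorted as GFP+ cells 48 h after the last dose, and each line gave 1 array per treatment. Both groups carried Cre-ER and the floxed allele, and the design held no tamoxifen-treated cells without either, so effects of the drug, of Cre and of Zfx loss cannot be told apart. The sources used here give neither mouse strain and age nor the promoter driving Cre-ER nor the clonality of the lines.

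Maturing thymocytes leave the thymus along a gradient of sphingosine-1-phosphate (S1P), which they sense through the receptor encoded by S1pr1. The transcription factor KLF2 switches on S1pr1 and is itself switched on by FOXO1, which AKT kinase keeps out of the nucleus, while the surface protein CD69 binds the S1P receptor and removes it from the membrane. The chemokine receptors CCR9, CCR7 and CXCR4 respond to CCL25 of thymus and gut, to CCL19 and CCL21 of thymic medulla and lymph node, and to CXCL12 of marrow and thymic cortex. The integrin chain alpha 4, from Itga4, pairs with beta 7, from Itgb7, to bind MAdCAM-1 of gut vessels, or with beta 1, from Itgb1, to bind VCAM-1. In T-ALL, CXCR4 is known for holding leukemia cells in the marrow niche and CCR7 for their entry into the central nervous system.

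Correlations between arrays lay between 0.991 and 0.996, and no array stood apart. The Zfx probe set read 10.96, 10.98 and 10.86 log2 intensity in the Tamoxifen arrays of lines 14843, 14844 and 14846, against 10.98, 10.90 and 10.72 in the Vehicle arrays. Where its probes lie relative to the deleted part of Zfx is not stated, so these values say nothing on whether the deletion took place, and the labelled group names are kept. All 9 T cell markers on the arrays were above the filter on dim genes, with mean log2 intensities from 11.17 to 13.40, and 0 of them passed the test between treatments or between lines. Among 7 lists of markers for other blood, vessel and stromal cells, 0 tested genes passed between treatments. Between lines, Lyz2 of the monocyte and macrophage list, S100a8 and Ngp of the neutrophil list, Klrb1c and Nkg7 of the natural killer cell list and Col1a2 of the stroma list passed, at limma adjusted p-values of 0.036, 0.0072, 0.027, 0.0063, 0.039 and 0.011. The brightest stroma marker had a mean log2 intensity of 12.43. Summed linear intensities of the 6 stroma markers were 8970, 7562 and 5028 in the Tamoxifen arrays of lines 14843, 14844 and 14846. In the Vehicle arrays they were 6265, 6710 and 6735. The part of all these markers in the differences between lines given below was not tested.

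Promoter sequence was at hand for 6 of the 9 genes, and those of Klf2, Itga4 and Itgb7 are shown. KLF2 is, with FOXO1, a transcription factor of this gene set, Itga4 differed between lines, and Itgb7 encodes its partner and is a known KLF2 target. The promoters of Foxo1, which held no match to the motifs below, and of Ccr9 and Cxcr4 are not shown. The sequences are from RefSeq on GRCm38.p6, run 5′ to 3′ on the gene's strand, and cover 250 bases before to 50 after the gene's start. They lie at chr8:72318812-72319111 (plus strand) for Klf2, chr2:79255176-79255475 (plus strand) for Itga4 and chr15:102231886-102232185 (minus strand) for Itgb7. Capitals mark matches to the motifs searched on both strands, which were CACCC for KLF factors, GTAAACA for FOXO, AGGCCT for ZFX and TGGGAA for the Notch partner RBPJ.
Klf2: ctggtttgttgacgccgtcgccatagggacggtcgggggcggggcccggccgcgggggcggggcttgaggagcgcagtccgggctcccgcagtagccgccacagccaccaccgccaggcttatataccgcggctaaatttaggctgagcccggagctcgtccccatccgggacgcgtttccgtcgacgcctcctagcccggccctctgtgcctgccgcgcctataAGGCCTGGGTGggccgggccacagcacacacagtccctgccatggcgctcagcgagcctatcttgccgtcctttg
Itga4: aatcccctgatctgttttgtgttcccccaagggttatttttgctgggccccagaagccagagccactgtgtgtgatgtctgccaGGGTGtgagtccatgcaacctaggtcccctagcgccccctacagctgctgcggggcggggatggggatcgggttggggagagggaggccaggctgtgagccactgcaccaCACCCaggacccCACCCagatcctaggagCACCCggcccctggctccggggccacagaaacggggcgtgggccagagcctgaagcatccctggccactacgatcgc
Itgb7: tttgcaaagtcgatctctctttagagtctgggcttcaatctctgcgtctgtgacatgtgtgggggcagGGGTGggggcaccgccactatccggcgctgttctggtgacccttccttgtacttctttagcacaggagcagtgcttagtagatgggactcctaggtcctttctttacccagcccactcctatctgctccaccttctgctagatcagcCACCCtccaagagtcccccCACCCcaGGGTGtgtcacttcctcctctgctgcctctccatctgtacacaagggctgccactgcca

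The KLF letters occurred 4 times in the Itga4 promoter and 4 times in that of Itgb7, against 1 time each for Klf2, Ccr9 and Cxcr4 and 0 for Foxo1. In the Klf2 promoter the ZFX letters, which begin at position -25 from the start, run directly into the KLF letters, with no overlap. The other 5 promoters held no ZFX match, and none of the 6 held a FOXO or RBPJ match. Among 32851 promoters of the same length, 57.5% held the KLF letters at least 1 time, 10.3% the ZFX letters, 3.65% the FOXO letters and 25.6% the RBPJ letters. The share holding the KLF letters 4 times was not counted, so 4 matches cannot be called many or few. A match describes the sequence only, and no binding was measured here.

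Between treatments, none of the 9 genes passed the test. Of the 9, 0 passed an adjusted p of 0.05 in limma with line as a block, against 6.23% of all genes tested. At an unadjusted p under 0.05 stood S1pr1, Ccr7 and Itga4, that is 3 of 9 genes, where 23.8% of all genes did. The median difference was 0.11 on the log2 scale over the 9 genes and 0.03 over all genes tested. S1pr1, Cxcr4, Ccr9 and Itga4 moved the same way in all 3 lines, that is 4 of 9, against 48.8% of all genes. The values of the groups overlapped for all 9 genes, while 23.7% of all genes had groups that did not overlap. Each line had 1 array per treatment, so whether a treatment difference itself differed between lines was not tested. The p-values of this fit rest on the spread left among the 6 arrays after line and treatment were fitted, moderated over all genes.

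Between lines, S1pr1 and Itga4 differed, and both were highest in line 14846. Averaged over treatments, S1pr1 was 3.82-fold and Itga4 2.42-fold higher in line 14846 than in line 14843. These 2 of 9 passed limma's moderated F test of the line terms at an adjusted p of 0.05, against 3.11% of all genes tested. At an unadjusted p under 0.05 stood 4 of 9 genes, Klf2 and Ccr7 being the other two, where 19.3% of all genes did. The median span between the highest and lowest line mean was 0.60 over the 9 genes and 0.14 over all genes tested. The plot of levels by line and treatment shows S1pr1 and Itga4 of line 14846 apart from the other lines under both treatments.

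**Figure D1:**
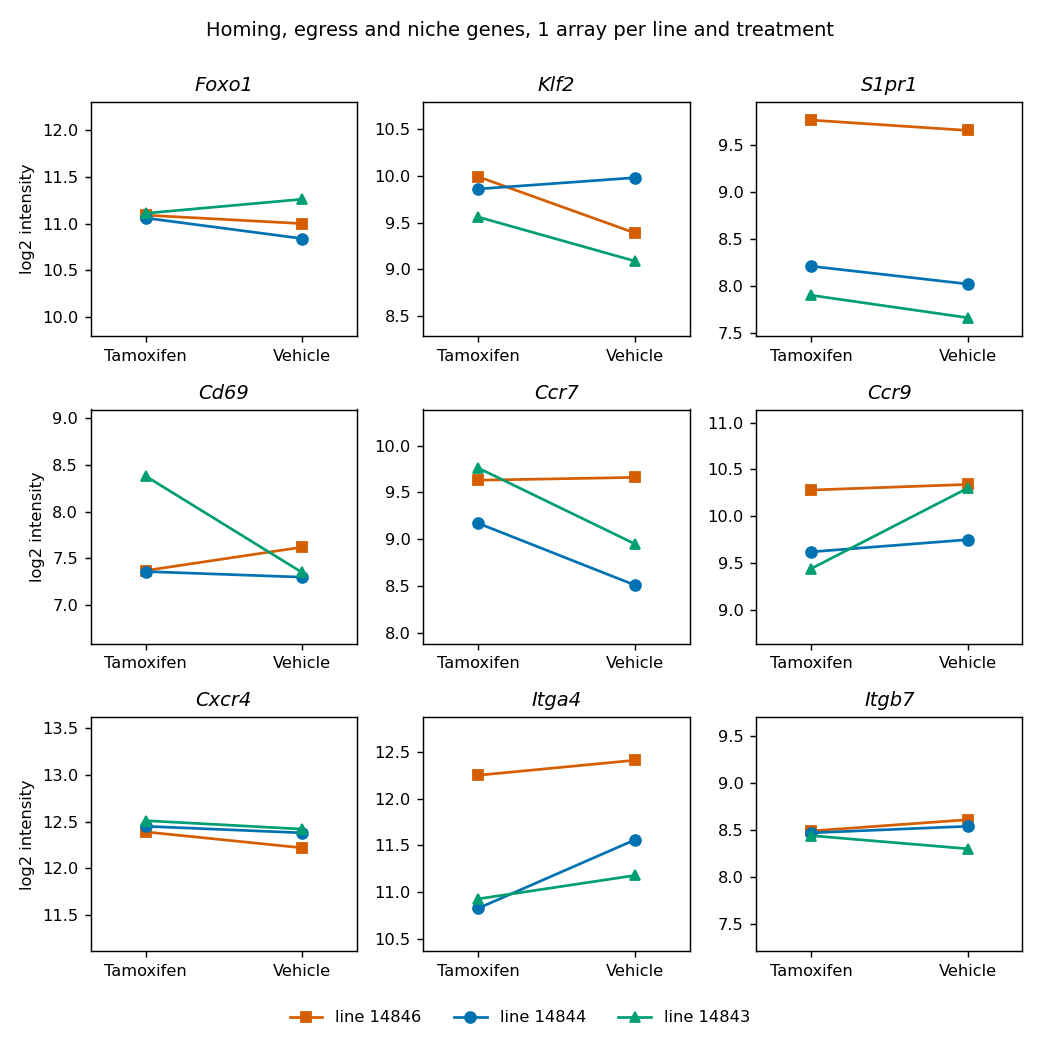
Log2 intensity of the 9 genes in the Tamoxifen array (left) and the Vehicle array (right) of each line, with a line joining the arrays of 1 leukemia. Every panel spans the same height in log2 units, each around its own level. S1pr1 and Itga4 of line 14846 lie above both other lines under both treatments, and Cd69 of line 14843 stands high in the Tamoxifen array, at 8.38.

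Foxo1 was nearly level across the arrays. It read 11.11, 11.06 and 11.09 log2 intensity in the Tamoxifen arrays of lines 14843, 14844 and 14846, against 11.26, 10.84 and 11.00 in the Vehicle arrays. The Tamoxifen values lay within the span of the Vehicle values, and the difference between treatments was 0.05 ± 0.08 (SE, 95% interval -0.15 to 0.26, limma adjusted p of 0.73). Line means ran from 10.95 in line 14844 to 11.19 in line 14843, and no pairwise contrast passed the test.

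Klf2 had more spread. Its values were 9.56, 9.86 and 9.99 in Tamoxifen arrays, against 9.09, 9.98 and 9.39 in Vehicle arrays, in the same order of lines. Tamoxifen was the higher array in lines 14843 and 14846 and the lower in line 14844, with within-line differences of 0.47, 0.60 and -0.11. The fitted difference was 0.32 ± 0.14 (SE, 95% interval -0.04 to 0.67, limma adjusted p of 0.25). By line mean Klf2 was highest in line 14844, at 9.92, followed by 9.69 in line 14846 and 9.32 in line 14843. The limma adjusted p for lines was 0.24, and no pairwise contrast passed the test.

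S1pr1, the exit receptor, read 7.90, 8.21 and 9.77 in the Tamoxifen arrays of lines 14843, 14844 and 14846, against 7.66, 8.02 and 9.66 in the Vehicle arrays. The Tamoxifen array was the higher of the pair in every line, by 0.11 to 0.24, while the groups as a whole overlapped because the lines lay far apart. The treatment difference was 0.18 ± 0.05 (SE, 95% interval 0.04 to 0.31), a 1.13-fold difference with a limma adjusted p of 0.13. Line 14846 exceeded line 14843 by 1.93 ± 0.07 and line 14844 by 1.60 ± 0.07 on the log2 scale (SE), 3.82-fold and 3.03-fold, with limma adjusted p-values of 7.5e-04 and 0.0015. For these contrasts 3.67% and 1.73% of all genes passed. Lines 14844 and 14843, at 8.12 and 7.78, did not pass, with a difference of 0.34 ± 0.07 and an adjusted p of 0.13. Without line 14846 the remaining lines gave an adjusted p of 0.096, in a fit in which 1.89% of all genes passed. That loss follows from leaving out the line that stood apart, and is no test of the call. Without line 14844 the adjusted p was 0.0093, where 1.38% passed.

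Markers of other cells are given here by line because S1pr1 is also made by vessel and natural killer (NK) cells. The summed linear intensity of 6 NK markers was 2226 and 2648 in the Tamoxifen and Vehicle arrays of line 14846, against 860 to 1101 in the other arrays. Of these, Klrb1c and Nkg7 differed between lines, by spans of 3.33 and 1.53 (limma adjusted p of 0.0063 and 0.039), and Prf1 gave 0.30 with an adjusted p of 0.46. The defining NK genes Ncr1, Klrd1 and Eomes were below the filter on dim genes. The summed level of 6 endothelial markers was 2858 and 2859 in line 14846 and 2361 to 2689 in the other arrays, and 0 of 3 tested genes passed between lines, with Kdr, Tek and Emcn too dim. Most of this sum came from Pecam1 alone, which is also among the adhesion genes below. It read 11.17 and 11.19 log2 intensity in line 14846, against 10.84 to 11.06 in the other arrays (limma adjusted p of 0.23 between lines). Of 5 B cell markers, summed to 821 and 1311 in line 14846 and 645 to 835 elsewhere, 0 of 3 tested genes passed. The part of NK, endothelial and B cells in the S1pr1 and Itga4 levels was not tested, and in sorted bulk cells a different share of cells and a different amount of RNA per cell cannot be told apart.

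Cd69, whose product removes the S1P receptor from the surface, read 8.38, 7.36 and 7.37 in the Tamoxifen arrays, against 7.35, 7.30 and 7.62 in the Vehicle arrays. The Tamoxifen array of line 14843 alone stood high, 2.04-fold above its Vehicle partner. In lines 14844 and 14846 the within-line differences were 0.05 and -0.25. The fitted difference of 0.28 ± 0.24 (SE, 95% interval -0.32 to 0.88) had a limma adjusted p of 0.51 and turned to -0.10 without line 14843. Line means of 7.87, 7.49 and 7.33 in lines 14843, 14846 and 14844 had an adjusted p of 0.51, and no pairwise contrast passed the test.

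**Figure D2:**
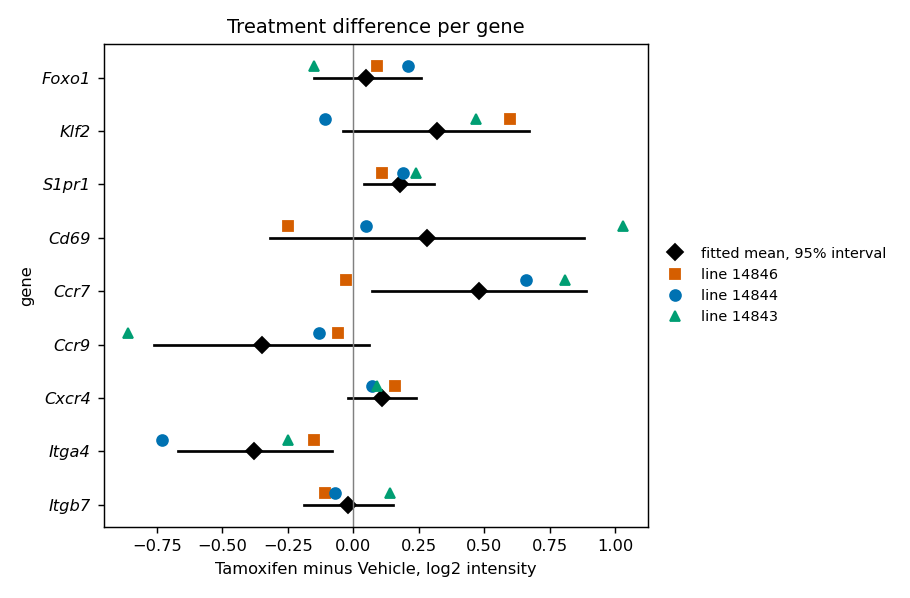
Tamoxifen minus Vehicle for each gene on the log2 scale, as the fitted mean with its 95% interval (black) and the difference within each line (coloured). The interval leaves out 0 for S1pr1, Ccr7 and Itga4, none of which passed after adjustment over all genes, and the lines spread most for Cd69, from -0.25 to 1.03.

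Ccr7, the receptor for lymph node chemokines, showed the largest fitted treatment difference among the 9 genes. Its values were 9.76, 9.17 and 9.63 in Tamoxifen arrays, against 8.95, 8.51 and 9.66 in Vehicle arrays. Lines 14843 and 14844 were higher under Tamoxifen, by 0.81 and 0.66 (1.75-fold and 1.58-fold), while line 14846 was level, at -0.03. Over the 3 lines the difference was 0.48 ± 0.16 (SE, 95% interval 0.07 to 0.89, limma adjusted p of 0.16). Without line 14846 it was 0.74 ± 0.07 with an adjusted p of 0.013, in a fit in which 4.79% of all genes passed, so this call depends on leaving out that line. Ccr7 line means were 9.65 in line 14846, 9.35 in line 14843 and 8.84 in line 14844, with an adjusted p of 0.18 for lines and no pairwise contrast past the test. Without line 14846 the adjusted p between the other lines was 0.043, for a span of 0.51.

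Ccr9, the receptor for the thymic chemokine CCL25, read 9.44, 9.62 and 10.28 in Tamoxifen arrays, against 10.30, 9.75 and 10.34 in Vehicle arrays. All 3 lines were lower under Tamoxifen, but line 14843 carried most of the difference, at -0.86, against -0.13 and -0.06 in lines 14844 and 14846. The fitted difference was -0.35 ± 0.16 (SE, 95% interval -0.76 to 0.06, limma adjusted p of 0.26). Line means were 10.31 in line 14846, 9.87 in line 14843 and 9.69 in line 14844, with an adjusted p of 0.27 and no pairwise contrast past the test. Without line 14843 the remaining lines differed by 0.63 with an adjusted p of 0.012, where 3.26% of all genes passed.

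Cxcr4, the receptor for CXCL12, varied least. It read 12.51, 12.45 and 12.39 in Tamoxifen arrays, against 12.42, 12.38 and 12.22 in Vehicle arrays. The Tamoxifen array was the higher in each line, by 0.07 to 0.16. The difference was 0.11 ± 0.05 (SE, 95% interval -0.02 to 0.24, limma adjusted p of 0.27), so that the interval ends well below a 2-fold change in either direction. Line means ran from 12.30 in line 14846 to 12.47 in line 14843, and no pairwise contrast passed the test.

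Itga4, the alpha 4 chain of the homing integrins, read 10.93, 10.83 and 12.25 in Tamoxifen arrays of lines 14843, 14844 and 14846, against 11.18, 11.56 and 12.41 in Vehicle arrays. Each line was lower under Tamoxifen, line 14844 the most, at -0.73, against -0.25 and -0.15 in lines 14843 and 14846. The difference of -0.38 ± 0.12 (SE, 95% interval -0.67 to -0.08) had a limma adjusted p of 0.14. Between lines, 14846 exceeded 14843 by 1.28 ± 0.14 and 14844 by 1.14 ± 0.14 (SE), 2.42-fold and 2.20-fold, with adjusted p-values of 0.015 and 0.030. Lines 14844 and 14843, at 11.19 and 11.06, differed by 0.14 ± 0.14 and did not pass, with an adjusted p of 0.69. Without line 14846 the adjusted p between the other lines was 0.61. Here too the loss follows from leaving out the line that stood apart, and is no test of the call.

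Itgb7, the beta 7 chain, read 8.44, 8.47 and 8.49 in Tamoxifen arrays, against 8.30, 8.54 and 8.61 in Vehicle arrays. The values of all 6 arrays lay within 0.31 log2 units, and the treatment difference was -0.02 ± 0.07 (SE, 95% interval -0.19 to 0.15, limma adjusted p of 0.90). The sign turned to 0.04 when arrays were centred on their medians, so no direction is given. Line means lay between 8.37 in line 14843 and 8.55 in line 14846, with an adjusted p of 0.42, and no pairwise contrast passed the test. Whether Itgb7 differed less between lines than its partner Itga4 was not tested.

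**Figure D3:**
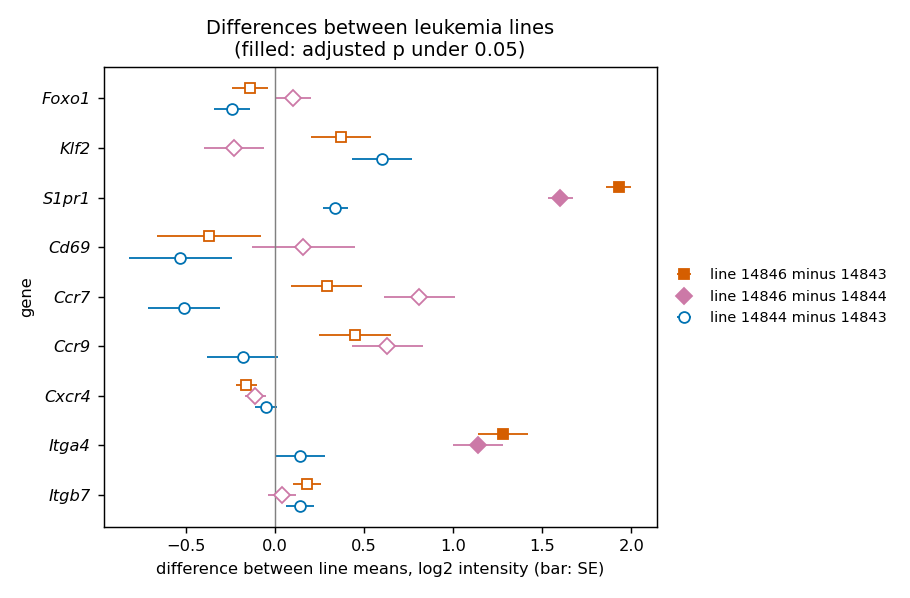
Differences between line means on the log2 scale for the 9 genes, each with its standard error. Filled symbols passed an adjusted p of 0.05, which held for line 14846 against both other lines for S1pr1 (1.93 and 1.60) and Itga4 (1.28 and 1.14) and for no difference between lines 14844 and 14843.

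Other genes of homing and egress were read from 10 lists holding 146 genes. Of these, 108 passed the filter and 29 fell below it, and 9 were not analysed here. Besides the genes above, 100 were tested, of which 1 rose and 3 fell between treatments, against 1.30% of all genes higher and 4.93% lower. Their median difference was 0.01. Between lines 4 of the 100 differed, against 3.11% of all genes. Each of these 4 stood apart in 1 line. Without that line the limma adjusted p was 0.32 for Klf7 and Itga6, 0.99 for Itgam and 0.61 for Cttn. Such a loss follows from leaving out the line that made the difference, and is no test of the call.

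Among 11 tested chemokine receptors, 1 rose and 0 fell, against 1.30% higher and 4.93% lower among all genes, with a median of 0.09. Ccr4, a receptor for CCL17 and CCL22, read 11.74, 11.31 and 10.93 in Tamoxifen arrays of lines 14843, 14844 and 14846, against 11.08, 10.64 and 10.57 in Vehicle arrays. It was higher under Tamoxifen in every line although the groups overlapped, and rose by 0.56 ± 0.08 (SE, limma adjusted p of 0.020). Without the block its adjusted p was 0.29, and without lines 14844 and 14843 it was 0.14 and 0.050. Another 11 receptors were too dim, among them Ccr2, Ccr6, Ccr8, Cxcr5 and Ackr3, the scavenger of CXCL12. Of 4 tested chemokines 0 passed the test, and Ccl25, the ligand of CCR9, gave 0.16 ± 0.07 with an adjusted p of 0.23, while Cxcl12 itself was too dim.

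Of 15 tested integrin genes 0 rose and 1 fell, against 1.30% higher and 4.93% lower among all genes, with a median of -0.02. Itgb1, the beta 1 chain that pairs with alpha 4 to bind VCAM-1, read 10.98, 10.88 and 10.33 in Tamoxifen arrays, against 11.30, 11.27 and 10.91 in Vehicle arrays. Each line was lower under Tamoxifen, and the fall was -0.43 ± 0.07 (SE, limma adjusted p of 0.027). The call was lost without the block, at an adjusted p of 0.34, and without line 14844 or 14846, at 0.14 and 0.052. Between lines 3 of the 15 integrins differed, Itga4 and also Itga6 and Itgam, against 3.11% of all genes. Itga6, the alpha 6 chain of laminin receptors, was low in line 14844, at 8.03 and 8.23 in its Tamoxifen and Vehicle arrays, against 9.02 to 9.45 in the other arrays, a span of 1.30 (limma adjusted p of 0.0061). Itgam, an integrin chain best known from myeloid cells, was high in line 14843, at 9.89 and 9.61, against 8.51 to 9.04 elsewhere, a span of 0.98 (adjusted p of 0.020). The summed intensity of 6 monocyte and macrophage markers was 958 and 945 in line 14843, against 1088 to 1214 in the other arrays. The 7 neutrophil markers summed to 1266 and 1216 in line 14843, 2882 and 2155 in line 14844, and 1350 and 1408 in line 14846. The part of myeloid cells in the Itgam levels was not tested.

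Upstream of FOXO1, of 13 tested PI3K and AKT pathway genes 0 rose and 2 fell, with a median of 0.00. Among all genes 1.30% were higher and 4.93% lower. Phlpp2, a phosphatase that removes an activating phosphate from AKT, read 7.22, 7.09 and 7.35 in Tamoxifen arrays, against 8.11, 8.07 and 8.41 in Vehicle arrays. Its groups did not overlap, and its level fell 1.97-fold, which is -0.98 ± 0.06 in log2 units (SE, limma adjusted p of 0.0027). Akt1, the kinase itself, read 11.46, 11.52 and 11.65 in Tamoxifen arrays, against 11.75, 11.94 and 11.96 in Vehicle arrays. It fell too, at -0.34 ± 0.06 with an adjusted p of 0.029, which was 0.11 without the block, 0.055 with arrays centred on their medians and 0.061 to 0.17 with any line left out. Phlpp2 kept its call in all of these settings, at adjusted p-values from 0.0012 to 0.047. FOXO1 phosphorylation was not measured.

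Among known FOXO1 or KLF2 targets and the S1P genes none passed the test between treatments, where 6.23% of all genes did. Of 9 tested targets, 4 of them among the genes above, 0 passed, with a median of -0.02, and Sesn1, a stress-induced FOXO target, came nearest, at -0.36 ± 0.08 (SE, limma adjusted p of 0.064). Of 10 S1P genes 0 passed and the median was 0.00. Some intervals left out 0 all the same, those of S1pr1, Ccr7, Sesn1, Sgpp1 and S1pr4, whose unadjusted p-values ran from 0.0048 to 0.029. Sgpp1, an S1P phosphatase, gave -0.26 ± 0.07 and the S1P receptor gene S1pr4 -0.23 ± 0.06, each with an adjusted p of 0.11. S1pr1 was the only one of these 10 that passed between lines, where 3.11% of all genes did. S1pr5, an S1P receptor of NK cells, spanned 0.17 between lines, with an adjusted p of 0.39.

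Among 12 KLF and FOXO genes 0 passed between treatments and Klf7 differed between lines. Of all genes, 6.23% passed between treatments and 3.11% between lines. Klf7 was low in line 14846, at 9.64 and 9.61 in its Tamoxifen and Vehicle arrays, against 10.19 to 10.60 elsewhere, a span of 0.97 (limma adjusted p of 0.018). Klf13 and Klf6 gave treatment differences of -0.15 ± 0.06 and -0.16 ± 0.08 (SE), with adjusted p-values of 0.21 and 0.28. Chemoattractant receptor signalling had 16 tested genes, of which 0 passed between treatments and 1 between lines, beside the same shares of 6.23% and 3.11%. Cttn, the actin regulator cortactin, was at 7.85 and 8.0 in line 14846, against 8.71 to 9.06 elsewhere, a span of 1.03 (adjusted p of 0.022). Pik3cg, the PI3K catalytic subunit used by chemokine receptors, gave 0.25 ± 0.06 between treatments, and Rgs14 gave -0.25 ± 0.08, with adjusted p-values of 0.069 and 0.14. Of 12 integrin activation genes and 11 selectin and adhesion genes 0 passed in either comparison. The nearest were Selplg, the selectin ligand PSGL-1, at -0.24 ± 0.05 (adjusted p of 0.067), St3gal4, at -0.18 ± 0.05 (0.11), Fyb, at -0.21 ± 0.05 (0.087), and vinculin, from Vcl, at 0.44 ± 0.11 (0.088).

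**Figure D4:**
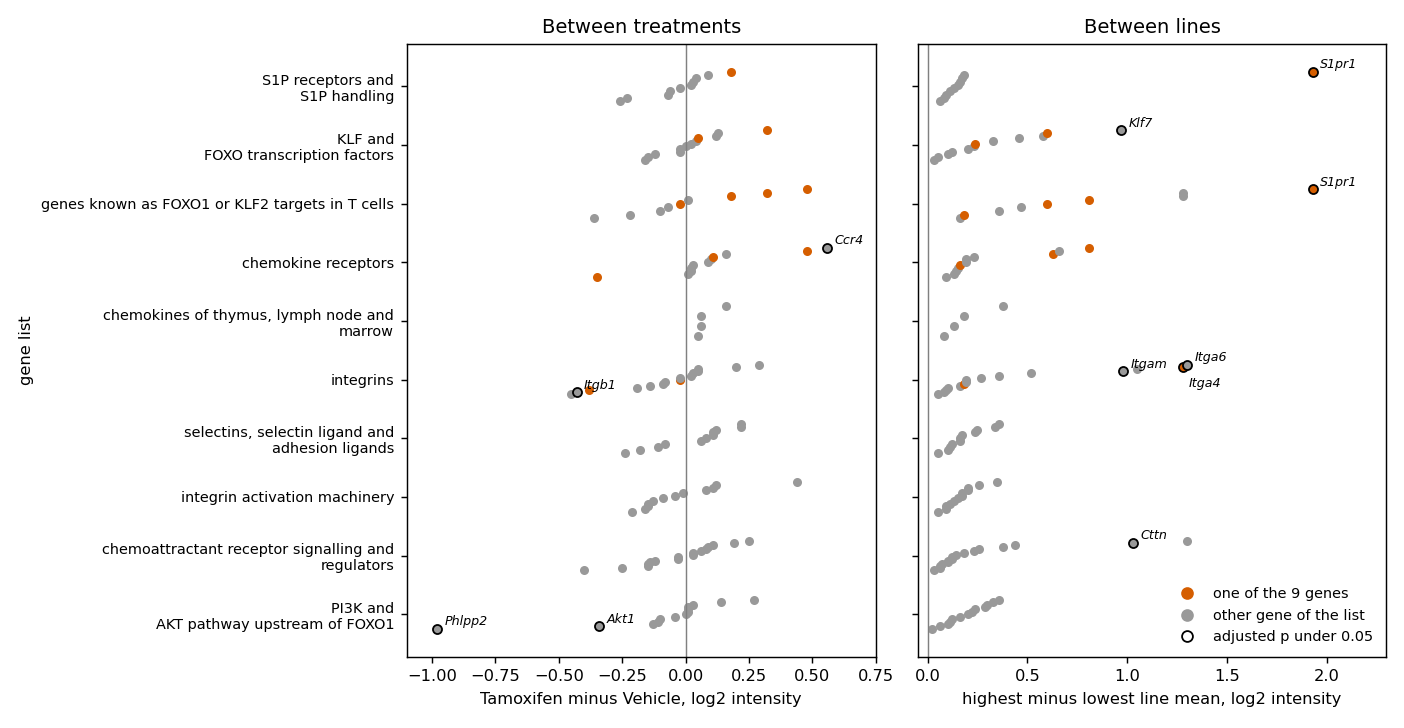
Treatment difference (left) and span between line means (right), both in log2 units, for each tested gene of the 10 lists. Orange points are the genes this text centres on, and ringed points passed an adjusted p of 0.05: Ccr4, Itgb1, Phlpp2 and Akt1 between treatments, and S1pr1, Itga4, Itga6, Itgam, Klf7 and Cttn between lines.

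The genes whose levels followed these most closely over the 6 arrays were found by the root mean square difference of log2 values, each gene centred on its own mean. This was done for the 4 genes with a range of at least 1 log2 unit, and the arrays are not independent, since 2 come from each line. S1pr1, with a range of 2.11, was nearest to S100a11, a calcium-binding protein gene, at 0.10 log2 units, and to Plekha8, a lipid transfer protein gene, at 0.14. S100a11 read 8.40, 8.81 and 10.08 in Tamoxifen arrays of lines 14843, 14844 and 14846, against 8.25, 8.44 and 10.15 in Vehicle arrays, so it too was high in line 14846. Itga4 was nearest to Ptprj, a receptor tyrosine phosphatase gene, at 0.08, and to Ptgr1, a prostaglandin reductase gene, at 0.17. Since they were picked for profiles like those of S1pr1 and Itga4, their own differences between lines or treatments are no separate result.

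Ccr7 was nearest to Cirbp, the cold-inducible RNA-binding protein gene, at 0.11, and to Ehd3, a membrane trafficking gene, at 0.13. Cirbp read 10.98, 10.46 and 10.75 in Tamoxifen arrays, against 10.03, 9.91 and 10.83 in Vehicle arrays. Cd69 was nearest to Ms4a4b, a T cell membrane protein gene, at 0.09, and to Tcn2, the transcobalamin gene, at 0.14. Ms4a4b read 8.72, 7.75 and 7.87 in Tamoxifen arrays, against 7.64, 7.52 and 8.01 in Vehicle arrays. These genes too were picked for profiles like those of Ccr7 and Cd69, so the patterns they share are no separate result.

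**Figure D5:**
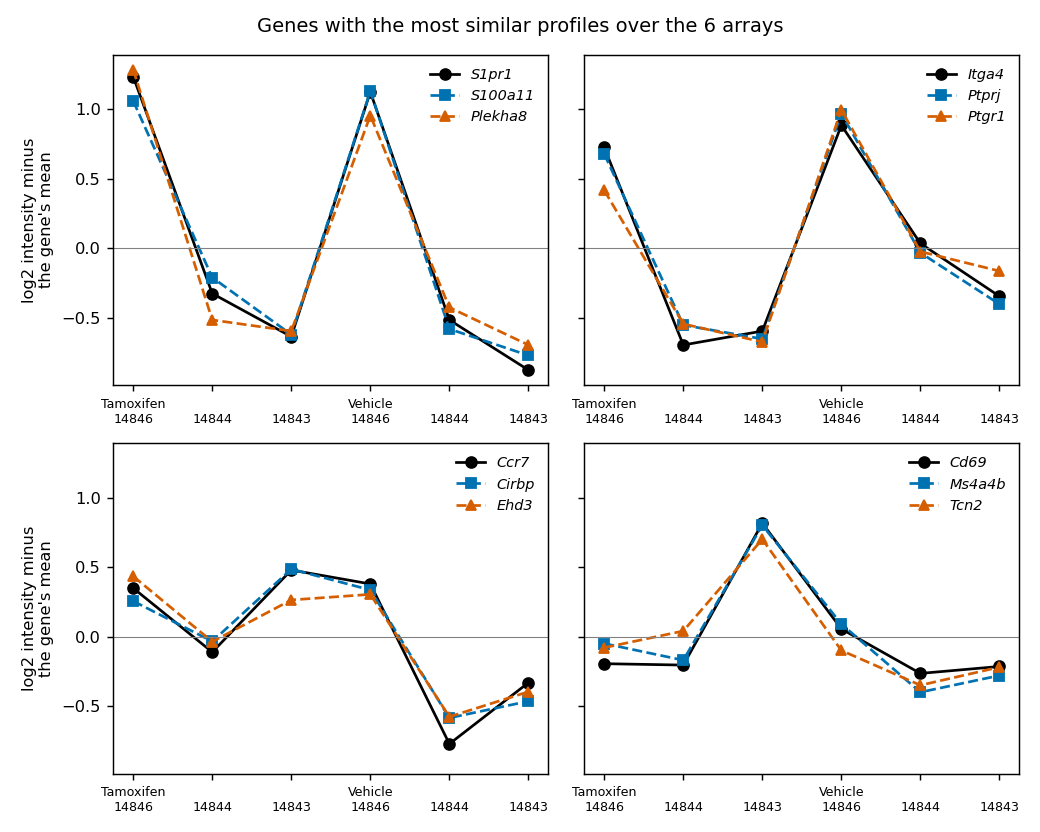
Log2 intensity minus the gene's own mean over the 6 arrays for S1pr1, Itga4, Ccr7 and Cd69 (black) and the 2 genes nearest to each (coloured). S100a11 and Ptprj have root mean square differences of 0.10 and 0.08 log2 units from S1pr1 and Itga4, with line 14846 high under both treatments, and Ms4a4b shares the high Tamoxifen array of line 14843 with Cd69. The coloured genes were picked for this likeness.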

How the data were processed

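Each of the 6 samples was read on 1 Affymetrix array, from 200 ng of total RNA, per the labels' protocols. The authors deposited an intensity per probe set, not log-transformed. The submitters' processing notes name RMA and Affymetrix Expression Console 1.1. RMA equalises the distribution of signal across arrays, so a shift shared by most genes is removed. Precision is limited by the number of arrays. The log2 of each intensity was computed here.

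Of 35556 probe sets, 21789 had 1 gene symbol in the platform annotation and 1621 had several, and 12146 were unnamed here. Only those with 1 symbol were used, and the brightest was kept where a gene had several (999 genes), giving 19938 genes. Symbols were checked by Entrez identifier against RefSeq, where 21698 were found. Genes at or above the 30th percentile of gene means, a log2 intensity of 6.70, were tested.

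The treatment comparison used lmFit and eBayes of limma 3.58.1 (R 4.3.3, default arguments) with line as a block, and lines were compared with the moderated F test and pairwise contrasts of the same fit, on 2 residual and 3.47 prior degrees of freedom. Two-sided p-values received Benjamini-Hochberg adjustment over the 13956 genes. The block was used because every leukemia was studied under both treatments, and deviations from group means correlated at 0.64, 0.68 and 0.68 between arrays of the same line. The steps were tested on simulated data. Alternatives left out the block, each line and the filter, or changed the moderation, the scaling and the choice of probe set.

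The 9 genes and the lists were chosen with earlier results of these data known. The text names, besides the 9 genes, the list members past the threshold (up to 6 by size between treatments and 4 between lines), examples of the 2 with the smallest p in lists without any, and the 2 genes nearest in profile to each of the 9 with a range of at least 1 log2 unit.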

Additional observations from a re-analysis of the deposited data

Results flagged for a closer look

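For 5 of the 9 genes, 1 line moved against both other lines between Tamoxifen and Vehicle. Each line is a single pair of arrays, so the difference between lines was not tested. On the log2 scale Klf2 gave -0.11 in line 14844, against 0.47 and 0.60 in lines 14843 and 14846. Ccr7 gave -0.03 in line 14846, against 0.81 and 0.66 in lines 14843 and 14844. Cd69 gave -0.25 in line 14846, against 1.03 in line 14843 and 0.05 in line 14844. Itgb7 gave 0.14 in line 14843, against -0.07 and -0.11 in the other lines, and Foxo1 gave -0.15 in line 14843, against 0.21 and 0.09. Among all genes tested 48.8% kept 1 direction in all 3 lines.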

How the results depend on the processing

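Without line as a replicate block, 295 genes changed between treatments in place of 870, and still 0 of the 9. Leaving out 1 line gave 70 to 669 changed genes and 0 to 1 of the 9 (Ccr7, without line 14846), and 193 to 455 genes differing between lines in place of 434, with 1 to 3 of the 9. Without line 14846 only Ccr7 differed between lines, without line 14843 Ccr9 joined S1pr1 and Itga4, and without line 14844 those 2 alone passed. Each fit without a line has fewer arrays and residual degrees of freedom. Centring arrays on their medians moved the genes differing between lines to 674, and the cause was not tested. It moved the median treatment difference of all genes from 0.03 to 0.08. Some treatment differences changed sign. Itgb7 ranged from -0.09 to 0.03 with 1 line left out (0.01 and 0.03 without lines 14844 and 14846) and gave 0.04 centred and 0.0012 after quantile normalization. Cd69 ranged from -0.10 (without line 14843) to 0.54, and Foxo1 from -0.03 (without line 14844) to 0.15. The cause was not tested. In every other setting tried for the 9 genes, direction and side of the threshold held. Probe sets below the filter limit what can be said of Ackr3, Cxcl12 and the defining NK genes.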

Other observations

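Some list genes spread widely over the arrays without passing either test. Examples are given as values, chosen after they were seen, and others spread as widely. Arrb1 had a range of 1.83 over the arrays, and its line 14846 was below line 14843 at a pairwise limma adjusted p of 0.028. Sgk3, too dim to be tested, had a range of 2.01, with 7.98 and 6.81 in the Tamoxifen and Vehicle arrays of line 14846. Il7r, the interleukin 7 receptor chain and a known FOXO1 target, read 11.14, 11.35 and 11.88 log2 intensity in Tamoxifen arrays of lines 14843, 14844 and 14846, against 10.67, 11.89 and 12.49 in Vehicle arrays. Line 14846 was thus highest under both treatments, as for S1pr1 and Itga4, but the span of 1.28 between line means had a limma adjusted p of 0.13. Itgae, the alpha E chain that pairs with beta 7 to hold T cells in epithelium, read 7.47, 7.80 and 7.88 in Tamoxifen arrays, against 7.24, 8.33 and 8.93 in Vehicle arrays. Its treatment difference was -0.45 ± 0.23 (SE, adjusted p of 0.30), with line 14843 moving against the other lines. Bcl6, a transcriptional repressor, read 9.76, 9.43 and 8.78 in Tamoxifen arrays, against 10.42, 9.03 and 8.83 in Vehicle arrays, lowest in line 14846, with an adjusted p of 0.094 between lines.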
